A study of Mus musculus with 4 samples.

Results

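The genes described here are 44 mouse genes of the ATF4 amino acid response, listed by name and read across the 4 arrays of the series. All probe sets whose platform annotation names 1 gene, and that gene only, were searched for them. Of the 44 genes 39 were found, on 74 of 28898 such probe sets, or 39 of 17097 genes. Mars was found under its newer symbol Mars1 and the other 38 under the listed one. Tars, Cars, Pycr1 and Slc1a4 were not analysed here, and Mthfd2 is named only on probe sets shared with Gsn and was left out. Where a gene had several probe sets, the one with the highest mean over the 4 arrays stands for it. An expression filter was set at a log2 signal of 5.40, the median of all values of these probe sets, and 38 of the 39 genes reached it on at least 1 array.

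ATF4 is a basic leucine zipper transcription factor of the integrated stress response. Kinases that sense uncharged tRNA, unfolded protein in the endoplasmic reticulum, double-stranded RNA or lack of haem phosphorylate the translation factor eIF2, which lowers general protein synthesis while the Atf4 message, with its upstream open reading frames, is translated more. ATF4 then binds, often together with C/EBP proteins, to genes for amino acid synthesis, amino acid transport, the charging of tRNA and further stress regulators. The level of the Atf4 message is therefore only part of the control of ATF4 protein, which arrays do not measure.

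All cells were mouse embryonic stem cells of the J1 line, cultured without feeders in medium with serum and LIF, which keeps them pluripotent. The 4 conditions, each with 1 array, were Tet1/Tet2 knockdown with PRDM14, Tet1/Tet2 knockdown, scramble with PRDM14, and scramble. Tet1 and Tet2 encode dioxygenases that oxidise 5-methylcytosine, and PRDM14 is a transcriptional regulator found in pluripotent cells and the germ line. The extraction protocol calls the cells iP14, without or with doxycycline, so exposure to doxycycline and PRDM14 cannot be told apart. Scramble arrays carry a control in place of the knockdown, and whether the lines were clones or pools is not given in the sources used here. The layout asks whether genes respond to PRDM14 when both TET enzymes are reduced. With 1 array per condition there is no replicate error, and precision is limited by this number of arrays. A gene is called higher or lower when 2 arrays differ by at least 2-fold and the higher reaches the filter, so a call states a size without any test.

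The array medians lay between 5.09 and 5.11. Of the targeted genes Tet2 read 8.15 on the knockdown + PRDM14 array and 7.50 on the knockdown array, against 9.33 on the scramble + PRDM14 array and 8.46 on the scramble array. Tet2 was called lower with the knockdown on the arrays labelled with PRDM14 (−1.18) but not on those without (−0.96), and Tet1 was not examined here. Prdm14 read 4.35 to 4.83, below the filter on all 4, so that the labels with PRDM14 could not be checked by it. The 7 pluripotency markers measured read 7.82 to 12.79 and the 6 fibroblast markers 3.17 to 4.88, below the filter. The scramble array stood furthest out, with a root mean square distance of 0.281 from the mean of the other arrays, against 0.199 to 0.258 for those. The 5′ probe set for 18S rRNA read 10.95 to 11.37 on the other 3 arrays and 11.79 on the scramble array. The part of these array differences in the results that follow was not tested.

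Most of the ATF4 response genes read highest on the scramble array. On the scramble + PRDM14 array 10 of the 39 were at least 2-fold lower, against 1.00% of 10366 genes. On the knockdown array 9 were, against 0.444% of 10351 genes. Of the 39 genes 34 (87.2%) read highest on the scramble array, where 29.7% of the 10519 genes that reached the filter on at least 1 array did. This list and the further lists below were chosen with earlier results of these data known. Shares of all genes set beside them are descriptive and no test. The knockdown + PRDM14 array was highest for 3, the knockdown array for 1 and the scramble + PRDM14 array for 1. Among the 10519 genes 22 (0.209%) read at least 2-fold higher on the scramble array than on each other array, and 6 of these 22 were ATF4 response genes: Nupr1, Cebpb, Psat1, Pck2, Chac1 and Ddit3. In bulk RNA, less message per cell and fewer cells that carry it cannot be told apart.

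**Figure D1:**
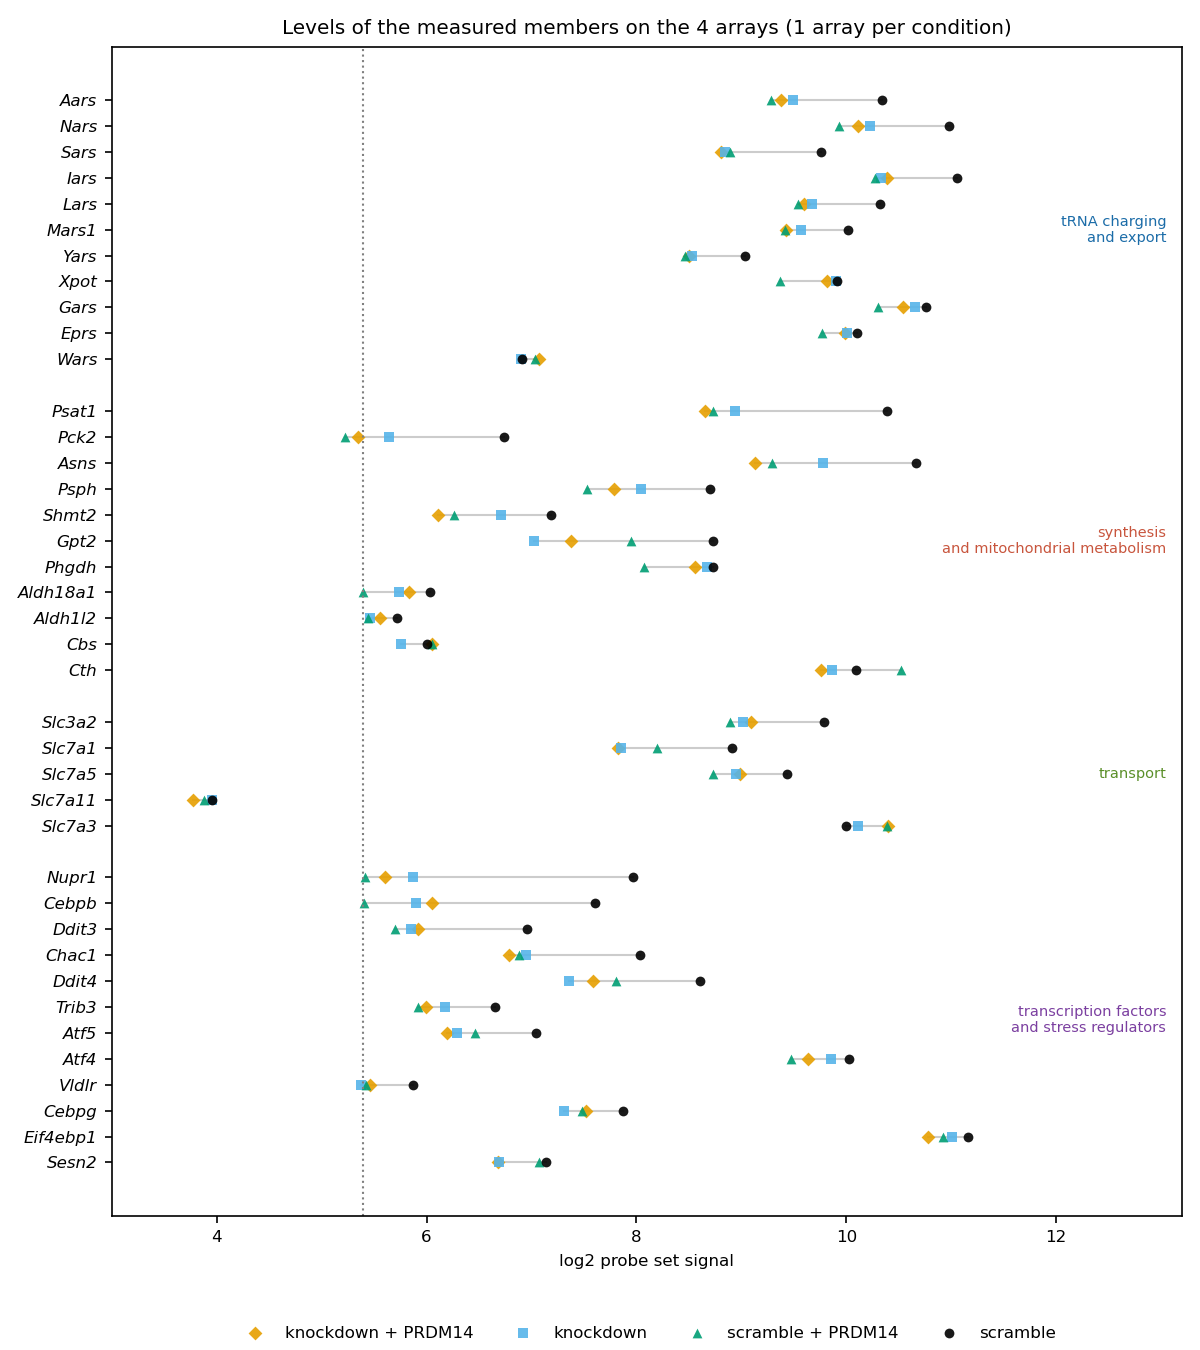
Log2 probe set signal (x axis) of the 39 measured genes (rows, grouped by role) on the 4 arrays, 1 point per array, with a grey line over the range and the expression filter of 5.40 as a dotted line. The scramble array (black circles) is the highest point in 34 of 39 rows, and Slc7a11 lies below the filter on all 4 arrays.

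The promoters of several of these genes hold the C/EBP-ATF response element, the composite site at which ATF4 is known to bind. RefSeq promoter windows of 250 bases before to 50 after the start site (GRCm38.p6) were found for 31 of the 39 genes, in 35 windows. The letters TGATGNAA, on either strand (TTNCATCA on the other), occur in 11 of the 35 windows (31.4%) and in 1304 of all 32851 windows (3.97%). The genes were listed as ATF4 response genes, so a higher share among them is not a separate result. The 11 genes were Aars, Asns, Chac1, Gars, Iars, Nupr1, Pck2, Slc7a11, Trib3, Vldlr and Yars. A match is a description of these letters and not a site shown to be bound. Genes without one in their windows, such as Psat1, Psph, Cebpb and Ddit3, were also lower on the other arrays, and sequence outside the windows was not searched. The 7 stretches that follow, each of 150 bases (−250 to −101 from the start site for Chac1 and −150 to −1 for the others) and read 5′ to 3′ on the strand of the gene, are shown because their genes span the range of differences, from Nupr1 to Slc7a11. Capitals mark the match.
Nupr1 (chr7:126625471-126625620, minus strand): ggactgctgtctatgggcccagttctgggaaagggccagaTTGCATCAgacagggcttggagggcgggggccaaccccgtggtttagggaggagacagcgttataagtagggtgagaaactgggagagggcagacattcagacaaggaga
Pck2 (chr14:55540116-55540265, plus strand): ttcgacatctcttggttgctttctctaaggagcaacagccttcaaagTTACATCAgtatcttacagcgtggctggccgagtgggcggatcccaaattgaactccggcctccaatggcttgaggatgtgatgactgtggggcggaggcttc
Asns (chr6:7693210-7693359, minus strand): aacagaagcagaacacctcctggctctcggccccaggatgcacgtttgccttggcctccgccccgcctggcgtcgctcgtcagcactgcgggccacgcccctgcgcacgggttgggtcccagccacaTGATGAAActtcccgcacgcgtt
Chac1 (chr2:119350992-119351141, plus strand): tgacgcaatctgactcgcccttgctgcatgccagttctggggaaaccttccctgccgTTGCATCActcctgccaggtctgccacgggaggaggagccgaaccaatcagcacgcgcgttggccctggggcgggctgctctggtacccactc
Aars (chr8:111033692-111033841, plus strand): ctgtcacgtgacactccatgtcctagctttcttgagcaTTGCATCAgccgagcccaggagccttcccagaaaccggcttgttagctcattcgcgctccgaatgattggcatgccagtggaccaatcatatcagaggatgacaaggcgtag
Gars (chr6:55037851-55038000, plus strand): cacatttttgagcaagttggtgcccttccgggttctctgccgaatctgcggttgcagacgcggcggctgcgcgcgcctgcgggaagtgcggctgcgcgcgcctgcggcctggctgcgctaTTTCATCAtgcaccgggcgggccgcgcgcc
Slc7a11 (chr3:50443614-50443763, minus strand): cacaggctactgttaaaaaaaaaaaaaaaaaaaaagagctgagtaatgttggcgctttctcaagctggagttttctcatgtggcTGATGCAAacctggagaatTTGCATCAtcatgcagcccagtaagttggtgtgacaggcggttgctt

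**Figure D2:**
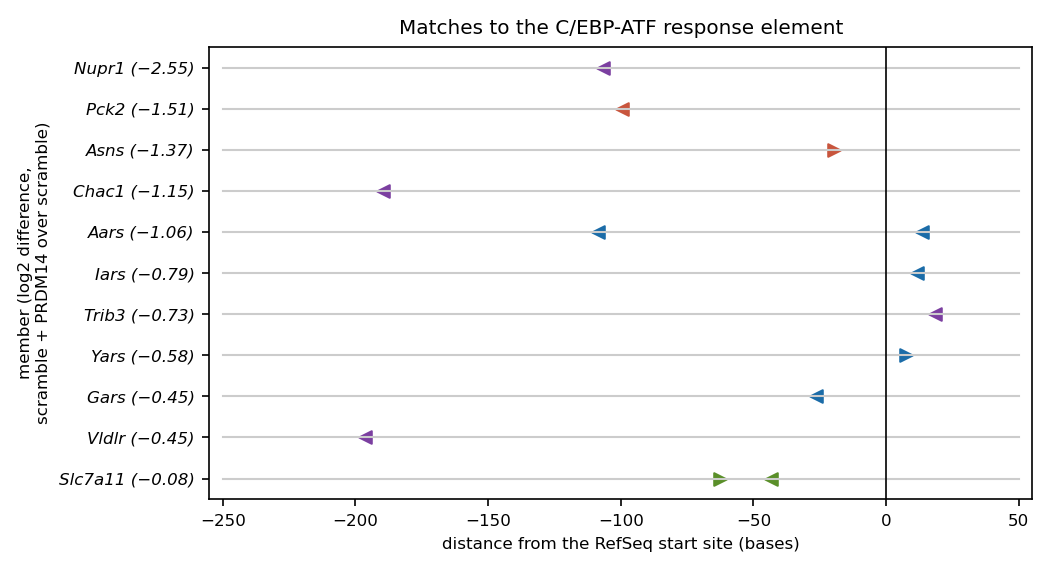
Positions of TGATGNAA on either strand in the promoter windows of 11 genes (rows), as the distance in bases from the RefSeq start site (x axis). Triangles point right for the strand of the gene and left for the other strand, colours give the role, and the number beside a name is the log2 difference of the scramble + PRDM14 array over the scramble array, from −2.55 for Nupr1 to −0.08 for Slc7a11.

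The first comparison set the scramble + PRDM14 array against the scramble array. Of the 39 genes 10 were at least 2-fold lower and 0 higher, with 35 below 0 and a median log2 difference of −0.71. Over all 10366 genes above the filter 1.00% were called lower and 1.09% higher, 2.09% in either direction, and the median over all 17097 genes was 0.003. The 10 were the regulators Nupr1, Cebpb, Ddit3 and Chac1, the synthesis enzymes Psat1, Pck2, Asns and Psph, and the tRNA synthetases Aars and Nars. Below the filter on the scramble + PRDM14 array was 1 of the 10, Pck2, while Cebpb (5.404) and Nupr1 (5.414) read just above it.

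With the knockdown in place, the knockdown + PRDM14 array was compared with the knockdown array. None of the 39 was called lower, where 0.272% of 10311 genes were, and none higher, where 0.359% were (0.630% in either direction). In a list of this size 0 calls are near those shares. Differences ran from −0.65 for Asns to 0.35 for Gpt2, with a median of −0.07, 25 genes below 0 and 14 above. Quartiles of the 39 genes were −0.17 and 0.08, against −0.09 and 0.08 over all 17097 genes. This pair shares no array with the first. Of the 10 genes called lower in scramble cells 0 were called lower in knockdown cells, and over all genes 7 of 104 were, so the count for the 10 is near that of all genes.

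In cells without PRDM14, the knockdown array also read lower than the scramble array. Of the 39 genes 9 were at least 2-fold lower and 0 higher, against 0.444% and 0.618% of 10351 genes (1.06% in either direction), with 37 below 0 and a median of −0.51, against 0.004 over all genes. The 9 were Nupr1, Cebpb, Ddit4, Ddit3, Chac1, Gpt2, Psat1, Pck2 and Slc7a1. This comparison and the first both subtract the scramble array, so the 6 genes they have in common, those 2-fold above every other array, are not 2 separate results. On the arrays labelled with PRDM14 the knockdown gave 0 calls among the 39 genes, against 0.475% of 10322 genes called lower and 0.630% called higher (1.10% in either direction), with differences from −0.76 for Cth to 0.65 for Cebpb and a median of 0.04. These 0 calls are near the shares of all genes for a list of this size.

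**Figure D3:**
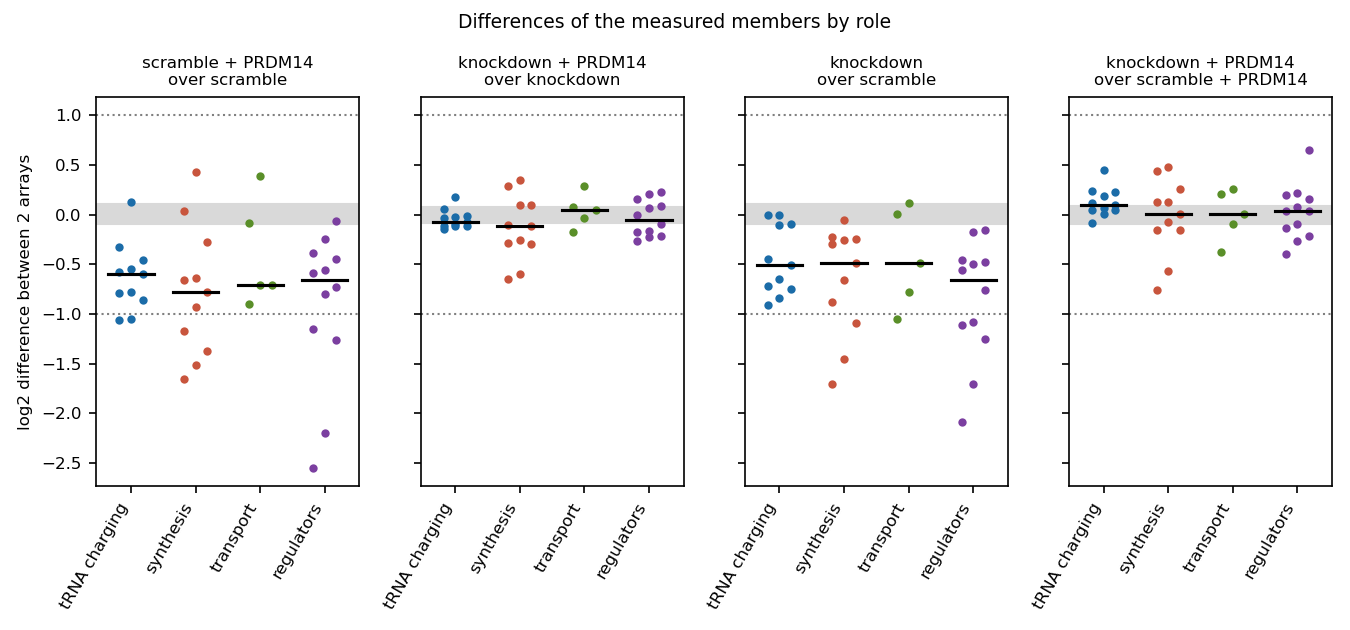
Log2 difference between 2 arrays (y axis) for each of the 39 genes, by role (x axis), in the 4 comparisons (panels). Points are genes, black bars the median of a role, the grey band the middle 50% of all genes and dotted lines 2-fold. The points lie below the band in most genes of both comparisons with the scramble array and around it in the other 2.

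The difference of the PRDM14 differences, knockdown minus scramble cells, was above 0 in 36 of 39 genes with a median of 0.59, against −0.008 over all genes. It contains the scramble array and has no replicate check. An additive fit of both factors in limma, with 1 residual degree of freedom, was the one test the design allowed. It called 0 of 10519 genes (0.00%) for PRDM14 and 0 (0.00%) for the knockdown at a Benjamini-Hochberg adjusted 5%, where 638 and 604 had an unadjusted p under 0.05. Of the 38 ATF4 response genes in the fit 4 had such a p for PRDM14 (Asns, Shmt2, Slc7a3 and Eif4ebp1) and 4 for the knockdown (Gpt2, Slc7a1, Atf5 and Sesn2). In this fit a difference between both PRDM14 comparisons counts as error.

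**Figure D4:**
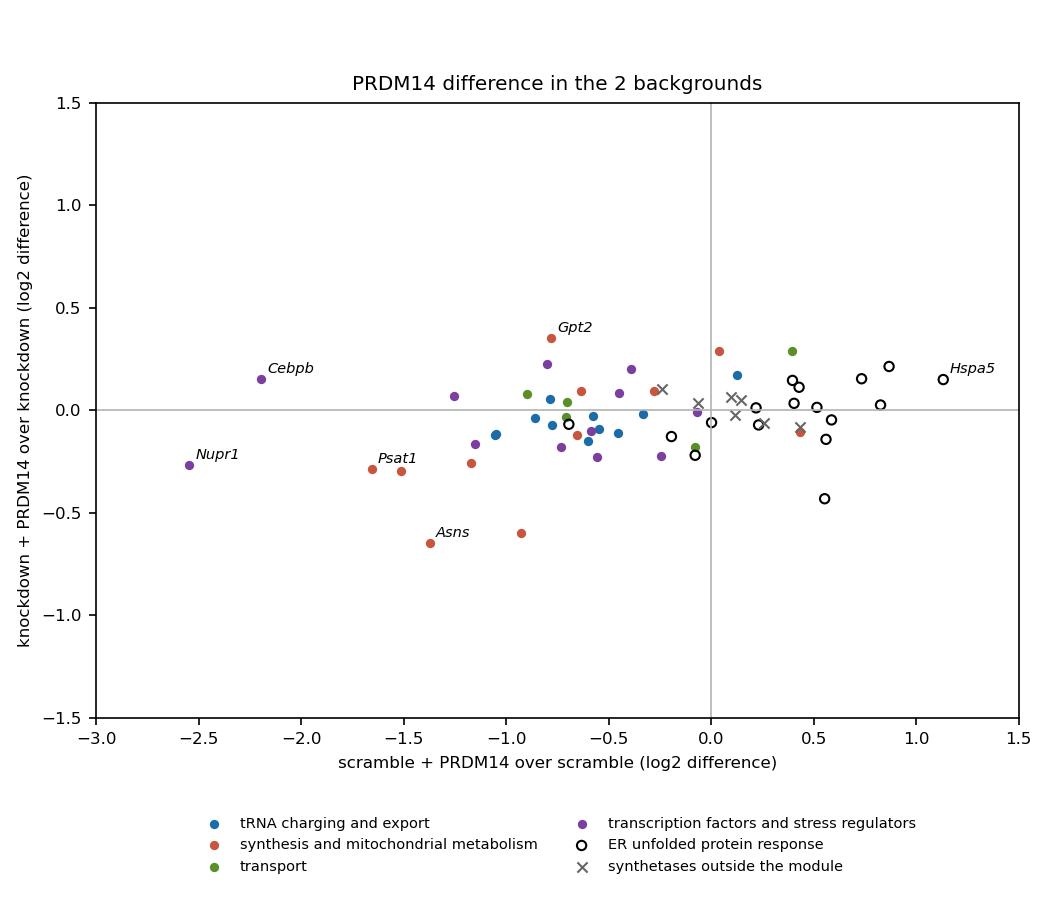
Log2 difference of the knockdown + PRDM14 over the knockdown array (y axis) against that of the scramble + PRDM14 over the scramble array (x axis), 1 point per gene, coloured by role, with 2 further lists as open circles and crosses. The ATF4 response genes extend to −2.55 on the x axis and lie between −0.65 and 0.35 on the y axis.

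Among transcription factors and stress regulators all 12 genes read highest on the scramble array. Nupr1, a small stress-induced chromatin-associated protein, read 5.61 on the knockdown + PRDM14 array, 5.87 on the knockdown array and 5.41 on the scramble + PRDM14 array, against 7.96 on the scramble array. It was 5.85-fold lower with PRDM14 in scramble cells (−2.55) and 4.25-fold lower with the knockdown (−2.09), while the 2 other differences were −0.27 and 0.19. A second Nupr1 probe set read 4.54, 4.73 and 3.70 on those 3 arrays and 7.39 on the scramble array, with a difference of −3.69 for PRDM14 in scramble cells. The first carries the suffix that the array maker gives to probe sets with probes that may also match other sequences.

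Cebpb encodes a C/EBP protein that can pair with ATF4. It read 6.05 on the knockdown + PRDM14 array, 5.90 on the knockdown array, 5.40 on the scramble + PRDM14 array and 7.60 on the scramble array. Its difference was −2.20 with PRDM14 in scramble cells and −1.70 with the knockdown, but a second probe set read 5.79 to 5.88 on all 4 arrays, with differences of −0.03 and 0.06. Its remaining probe set, below the filter on all 4 arrays, gave −0.76 and −0.63. The 2-fold calls of Cebpb thus rested on 1 of its 2 probe sets above the filter. Its relative Cebpg read 7.52, 7.31 and 7.48 on the 3 other arrays in that order and 7.87 on the scramble array.

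Ddit3, which encodes the pro-apoptotic factor CHOP, read 5.91 on the knockdown + PRDM14 array, 5.85 on the knockdown array, 5.70 on the scramble + PRDM14 array and 6.96 on the scramble array, with differences of −1.26 for PRDM14 in scramble cells and −1.11 for the knockdown. Chac1, an enzyme that degrades glutathione, read 6.79, 6.95 and 6.88 on the 3 other arrays and 8.03 on the scramble array, with differences of −1.15 and −1.08. On the 3 other arrays Ddit3 lay within a range of 0.22 and Chac1 within 0.16 log2 units. Ddit4, an inhibitor of mTORC1, read 7.59 on the knockdown + PRDM14 array, 7.36 on the knockdown array, 7.81 on the scramble + PRDM14 array and 8.61 on the scramble array, and was called with the knockdown only (−1.25), its difference with PRDM14 in scramble cells being −0.80.

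Atf4 itself was called in none of the 4 comparisons. It read 9.63 on the knockdown + PRDM14 array and 9.86 on the knockdown array, and 9.47 on the scramble + PRDM14 array against 10.03 on the scramble array. The scramble array was highest, with differences of −0.56 for PRDM14 in scramble cells and −0.17 for the knockdown, both under 2-fold. A second Atf4 probe set lay below the filter on all arrays. The related factor Atf5 had differences of −0.58 and −0.76 in these comparisons, and the pseudokinase Trib3, which is known to restrain ATF4, −0.73 and −0.48.

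Sesn2, a leucine-binding inhibitor of mTORC1 signalling, followed the knockdown label instead. It read 6.68 and 6.69 on the knockdown + PRDM14 and knockdown arrays, against 7.07 and 7.14 on the scramble + PRDM14 and scramble arrays, and a second probe set gave 6.60 and 6.68 against 6.91 and 6.94. The limma estimate for the knockdown was −0.42 ± 0.08 (SE), with an adjusted p of 0.802. Eif4ebp1, a repressor of cap-dependent translation, read 10.78, 11.00 and 10.92 on the 3 other arrays and 11.16 on the scramble array. Vldlr, a lipoprotein receptor, read 5.38 to 5.46 on the 3 other arrays, near the filter, and 5.87 on the scramble array.

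In amino acid synthesis and mitochondrial metabolism, the serine pathway held 2 of the called genes. Psat1, the aminotransferase of serine synthesis, read 8.65 on the knockdown + PRDM14 array, 8.94 on the knockdown array, 8.73 on the scramble + PRDM14 array and 10.39 on the scramble array. It was 3.15-fold lower with PRDM14 in scramble cells (−1.66) and 2.73-fold lower with the knockdown (−1.45). Psph, the phosphatase of the last step, read 7.79, 8.04 and 7.53 on the 3 other arrays and 8.70 on the scramble array, and was called with PRDM14 in scramble cells (−1.17) but not with the knockdown (−0.66).

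Phgdh, the dehydrogenase of the first step, had another pattern, with the scramble + PRDM14 array low. It read 8.55 on the knockdown + PRDM14 array and 8.67 on the knockdown array, and 8.08 on the scramble + PRDM14 array against 8.73 on the scramble array. A second probe set read 7.68 and 7.95 on the knockdown arrays and 6.45 against 7.92 on the scramble arrays, so that its difference with PRDM14 in scramble cells was −1.47, past 2-fold, and its difference with the knockdown 0.03. Both Phgdh probe sets put the knockdown array within 0.06 log2 units of the scramble array. Shmt2, which makes glycine and 1-carbon units in mitochondria, read 6.11 with and 6.70 without PRDM14 in knockdown cells and 6.26 against 7.19 in scramble cells, lower on the array labelled with PRDM14 in both backgrounds (−0.60 and −0.93).

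Asns, asparagine synthetase, likewise read lower with PRDM14 in both backgrounds. It read 9.13 on the knockdown + PRDM14 array against 9.78 on the knockdown array, and 9.29 on the scramble + PRDM14 array against 10.66 on the scramble array. The differences were −0.65 in knockdown and −1.37 in scramble cells, the limma estimate for PRDM14 was −1.01 ± 0.23 (SE), and its adjusted p was 0.782. The knockdown array lay 0.88 log2 units below the scramble array, and the arrays labelled with PRDM14 lay within 0.16 of each other.

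Pck2, the mitochondrial phosphoenolpyruvate carboxykinase, read 5.35 on the knockdown + PRDM14 array, 5.64 on the knockdown array, 5.22 on the scramble + PRDM14 array and 6.74 on the scramble array. The differences of −1.51 with PRDM14 in scramble cells and −1.09 with the knockdown start from arrays near or below the filter. A second Pck2 probe set, below the filter, gave −0.52 and −0.31. Gpt2, the mitochondrial alanine aminotransferase, was lowest on the knockdown array, with 7.38 on the knockdown + PRDM14 array, 7.03 on the knockdown array, 7.95 on the scramble + PRDM14 array and 8.73 on the scramble array. Its difference with the knockdown was −1.70, with −1.11 and −0.27 on 2 further probe sets.

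The 4 remaining synthesis genes were not called in any comparison. Aldh18a1, which begins proline synthesis from glutamate, had differences of −0.64 with PRDM14 in scramble cells and −0.30 with the knockdown, and Aldh1l2, a mitochondrial folate enzyme, −0.28 and −0.25, both at 5.39 to 6.03. Of the transsulfuration enzymes, Cbs read 5.76 to 6.05 on the 4 arrays. Cth read 9.76 on the knockdown + PRDM14 array, 9.87 on the knockdown array, 10.53 on the scramble + PRDM14 array and 10.09 on the scramble array, and was the 1 gene of the 39 that was highest on the scramble + PRDM14 array. Its difference with the knockdown was −0.76 on the arrays labelled with PRDM14 and −0.23 on those without.

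Of the genes for tRNA charging and export 10 of 11 read highest on the scramble array. Aars, alanyl-tRNA synthetase, read 9.38 on the knockdown + PRDM14 array, 9.49 on the knockdown array, 9.28 on the scramble + PRDM14 array and 10.34 on the scramble array, and a second probe set read 8.58, 8.52 and 8.45 against 9.51. Its difference with PRDM14 in scramble cells was −1.06 on both. Nars, asparaginyl-tRNA synthetase, read 10.12, 10.23 and 9.93 on the 3 other arrays and 10.98 on the scramble array, a difference of −1.05, with −1.01 on its second probe set. With the knockdown Aars was at −0.84 and Nars at −0.75, short of 2-fold.

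Sars was just short of 2-fold in both comparisons with the scramble array, at −0.86 and −0.91, with 8.81, 8.84 and 8.89 on the 3 other arrays and 9.76 on the scramble array. Iars (−0.79 and −0.72), Lars (−0.78 and −0.64), Mars1 (−0.60 and −0.45) and Yars (−0.58 and −0.51) differed in the same direction by less. Among these 5 synthetases the range of the 3 other arrays was at most 0.15 log2 units, in Mars1. Gars and Eprs, and Xpot, which exports tRNA from the nucleus, were lower on the scramble + PRDM14 array by −0.45, −0.33 and −0.55, while the knockdown array lay within 0.11 of the scramble array. Xpot read highest on the scramble array by only 0.008 log2 units. Its further probe sets above the filter put the knockdown array above the scramble array, at 9.48 against 9.47 and at 9.32 against 9.16. Wars, tryptophanyl-tRNA synthetase, read 6.90 to 7.07 on the 4 arrays and was not highest on the scramble array.

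Among amino acid transporters, the chains of 1 heterodimer, Slc3a2 and the leucine carrier Slc7a5, differed in the same direction. Slc3a2 read 9.09 on the knockdown + PRDM14 array, 9.01 on the knockdown array, 8.89 on the scramble + PRDM14 array and 9.79 on the scramble array, and Slc7a5 8.99, 8.95 and 8.73 on the first 3 and 9.44 on the scramble array. Slc7a1, a carrier of cationic amino acids, read 7.82, 7.85 and 8.20 on those 3 arrays and 8.91 on the scramble array, was called with the knockdown (−1.05) and gave −0.82 on a second probe set. Its relative Slc7a3 went the other way with PRDM14, at 10.40 on the knockdown + PRDM14 array against 10.11 on the knockdown array and at 10.39 on the scramble + PRDM14 array against 10.00 on the scramble array. Slc7a11, the cystine and glutamate exchanger, read 3.78 to 3.96, below the filter on all 4 arrays, although its promoter holds 2 matches to the response element.

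Further lists around the pathway are set beside these genes as counts, with 2.09% of all genes called for PRDM14 in scramble cells and 1.06% for the knockdown without PRDM14, so that 0 calls in a list of this size are near the share of all genes. Of 7 cytosolic synthetases outside the list (Hars, Kars, Qars, Rars, Vars, Farsa and Farsb) 0 were called in any comparison, with medians of 0.11 for PRDM14 in scramble cells and 0.03 for the knockdown without PRDM14, and 1 was highest on the scramble array, where 29.7% of the 10519 genes were. Of 15 mitochondrial synthetases 0 were called, with medians of −0.04 and −0.08, and Rars2 had differences of −0.68 and −0.67. Of 12 eIF2 kinases, phosphatases and subunits 0 were called, with medians of −0.01 and −0.08. Of 15 other genes linked to ATF4 the bZIP repressor Jdp2 was called lower with PRDM14 in scramble cells (−1.13) and Sesn3 higher with the knockdown on the arrays labelled with PRDM14 (1.02), and 8 of the 15 were highest on the scramble array. Medians of the 15 were −0.24 for PRDM14 in scramble cells and −0.15 for the knockdown without PRDM14, against −0.71 and −0.51 for the 39 genes. In each of these comparisons 11 of the 15 were below 0 and 4 above. Jdp2 read 5.59 on the scramble array, near the filter, and 4.46 to 4.90 on the other arrays, below it. Of 4 cytosolic 1-carbon genes 0 were called.

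Genes of the unfolded protein response of the endoplasmic reticulum, a neighbouring stress programme run by ATF6 and XBP1, had the opposite order. Of 17 genes 14 (82.4%) read lowest on the scramble array, where 31.1% of the 10519 genes did, with medians of 0.43 for PRDM14 in scramble cells and 0.32 for the knockdown. The chaperone Hspa5 read 10.60 on the knockdown + PRDM14 array, 10.45 on the knockdown array, 10.62 on the scramble + PRDM14 array and 9.48 on the scramble array, and was called higher with PRDM14 in scramble cells (1.13) but not with the knockdown (0.97). Highest on the scramble array were 2 of the 17, Herpud1, with differences of −0.69 and −0.69, and Atf6 itself, with −0.19 and −0.35. Of 14 ER windows 1 held TGATGNAA, that of Herpud1, and any link of this match to its differences was not tested. The endoplasmic reticulum stress element (CCAAT, a spacer of 9 bases and CCACG), searched on both strands, was found in 6 of those 14 windows, in 0 of the 35 windows of ATF4 response genes and in 39 (0.119%) of all windows. The ER genes were listed as genes of this programme, so a higher share among them is not a separate result.

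**Figure D5:**
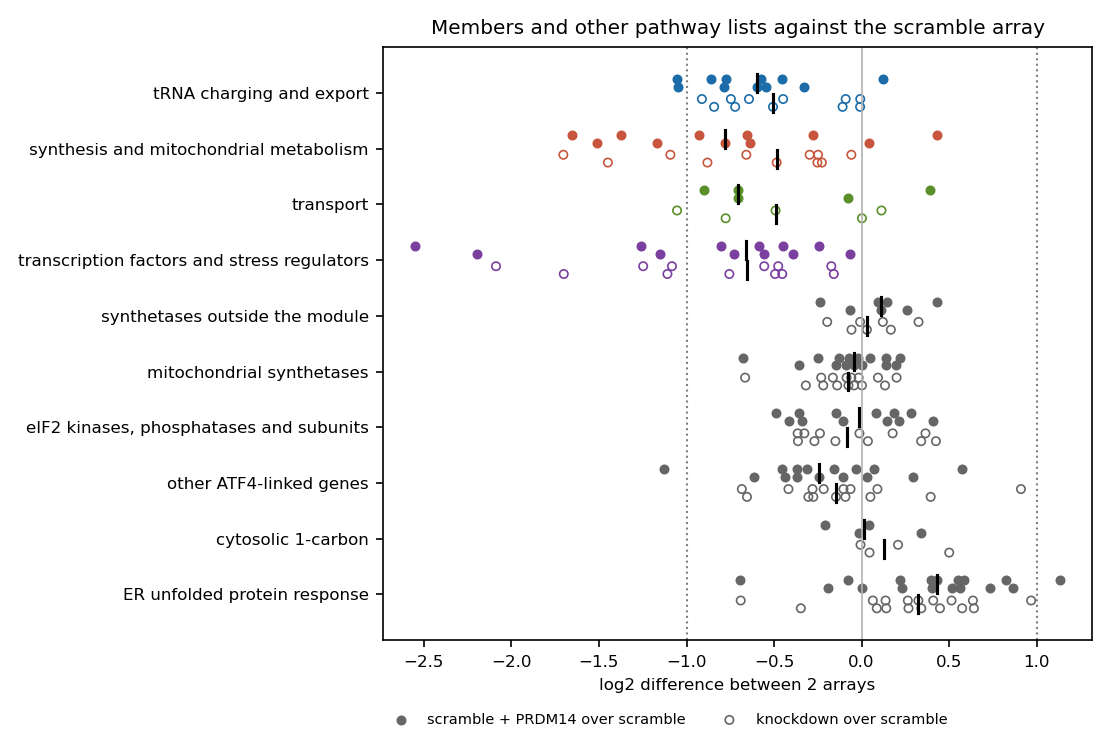
Log2 differences (x axis) of the ATF4 response genes by role, in colour, and of 6 further pathway lists, in grey (rows). Filled points give the scramble + PRDM14 over the scramble array, open points the knockdown over the scramble array, black bars medians and dotted lines 2-fold. Medians of the 4 coloured roles lie between −0.78 and −0.49, and those of the endoplasmic reticulum list at 0.43 and 0.32.

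Probe sets of 1 gene gave a technical yardstick that covers neither cultures nor arrays. Over the 3233 genes that had more than 1 probe set above the filter, the difference with PRDM14 in scramble cells had a pooled SD of 0.22 between probe sets, and over 17 ATF4 response genes 0.44. Of the called ATF4 response genes with several such probe sets, all probe sets had the same direction in 4 of 4 for PRDM14 in scramble cells, counting Cebpb with −0.03 on its second, and all were past 2-fold in 3 of 4. Over all genes these counts were 69 and 26 of 78. For the knockdown without PRDM14 they were 3 and 1 of 4, against 32 and 12 of 35 over all genes.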

How the data were processed

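Total RNA was measured on 4 Affymetrix arrays, 1 per condition, with groups taken from the titles. The authors deposited log2 signals per probe set, taken as log2 from their range of 2.78 to 13.2, with quartiles that differed between arrays by at most 0.0164. They were made in Affymetrix Expression Console, per the submitters' processing notes, with version and summary method not given in the sources used here. Of 45141 probe sets 28898 had 1 gene in the platform annotation, 551 several and 15588 none, and 104 were controls. The Entrez IDs of 39 of 39 genes were in the RefSeq table.

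Differences are the log2 value with PRDM14 minus that without, or with the knockdown minus that of scramble cells. The additive fit used limma 3.58.1 (R 4.3.3, lmFit and eBayes with an intensity trend), after the procedure had been tested on simulated data. The simulated PRDM14 changes were the same in both backgrounds, so that test does not cover genes whose differences depend on the background. The genes and lists were chosen with earlier results of these data known. All measured genes are accounted for, and the rule for values named those called in any comparison, Atf4, and in each role the brightest and those nearest 2-fold. Cth, Phgdh, Sesn2, Herpud1, Atf6, Rars2 and probe set disagreements were named after their values were seen. Alternatives were 1.5- and 3-fold thresholds, no filter or the 75th percentile, other probe set choices, values raised to the filter, 2 rescalings and a fit without a trend.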

Additional observations from a re-analysis of the deposited data

Results flagged for a closer look

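The same contrast had opposite signs in the 2 backgrounds, with 1 of them past 2-fold, for 4 of the 39 genes, and with 1 array per condition no such difference was tested. The matching count over all genes was not made, so the 4 are not shown to exceed the share in other genes. With PRDM14, Cebpb was at 0.15 in knockdown and −2.20 in scramble cells, a gap of 2.35, and Ddit3 at 0.07 and −1.26, a gap of 1.33. With the knockdown, Cebpb was at 0.65 on the arrays labelled with PRDM14 and −1.70 on those without (2.35), Nupr1 at 0.19 and −2.09 (2.28), Ddit3 at 0.22 and −1.11 (1.33) and Pck2 at 0.12 and −1.09 (1.22). The second Cebpb probe set above the filter had no opposite signs, at −0.06 and −0.03 for PRDM14 and 0.03 and 0.06 for the knockdown. The Cebpb probe set below the filter gave −0.05 and −0.76 for PRDM14 and 0.08 and −0.63 for the knockdown. The 0.12 of Pck2 lies between arrays that both read below the filter, at 5.35 and 5.22, and was 0 with values raised to the filter and −0.06 on the plain probe set, so its opposite sign did not hold under those settings. Each gap contains the scramble array, on which the 4 genes read highest, and the positive values were all under 2-fold.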

How the results depend on the processing

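No paired analysis was possible because each condition has 1 array. The count of genes called lower with PRDM14 in scramble cells, 10, was 23 at 1.5-fold and 3 at 3-fold, and that with the knockdown without PRDM14, 9, was 18 and 3, and 5 on probe sets with a plain suffix, which 31 of the 39 genes have. At 1.5-fold 2 genes were called lower with PRDM14 in knockdown cells, and 1 higher and 1 lower with the knockdown on the arrays labelled with PRDM14. The count highest on the scramble + PRDM14 array, 1, was 2 with the mean of probe sets, with plain probe sets or with quantile normalization and 3 with equal array medians. That on the knockdown array, 1, was 2 with plain probe sets and 0 with raised values or equal medians, and that on the knockdown + PRDM14 array, 3, was 1 with plain probe sets or equal medians. With plain probe sets Gpt2 was at −0.27 and Pck2 at −0.31 with the knockdown, and with the mean of probe sets Cebpb was at −0.996 with PRDM14 in scramble cells. With that mean the knockdown without PRDM14 called 6 genes lower in place of 9, with Cebpb at −0.76, Pck2 at −0.70 and Slc7a1 at −0.65, all short of 2-fold. Genes called over the whole array numbered 217, 65, 110 and 114 in the 4 comparisons, 849, 290, 527 and 448 at 1.5-fold and 52, 13, 21 and 12 at 3-fold. With the mean of probe sets 43 were called with PRDM14 in knockdown cells. Of 175 further values of the main results 17 moved and no called difference changed sign. The number of arrays and signals near the filter limit what could be detected.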
